A study of Homo sapiens with 4 samples.

Results

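The BCL2 family decides whether a cell's mitochondria release cytochrome c and start apoptosis. Its anti-apoptotic members (BCL2, BCL-XL, MCL1 and A1) hold the pore-forming effectors BAX and BAK1 in check, and the BH3-only members (BID, BIM, PUMA and NOXA) bind and overcome that check. PUMA, NOXA and BAX are classical transcriptional targets of p53, and anti-apoptotic members are often raised in leukaemias and breast cancers. The members were the 10 genes BCL2, BCL2L1, MCL1, BCL2A1, BAX, BAK1, BID, BCL2L11, BBC3 and PMAIP1, taken by symbol out of 59533 genes analysed. All 10 had a value in all 4 libraries.

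The libraries came from 2 human cancer cell lines, 1 library for each of 4 groups, profiled by RNA sequencing. HCC1937 derives from a breast carcinoma and THP-1 from an acute monocytic leukaemia. The labels describe both as p53-/- and as infected to overexpress p53-R282W, a mutant of the tumour suppressor. The groups were HCC1937 with 0.3 µM decitabine (DAC) for 5 days, untreated HCC1937, THP-1 with 5 µM DAC for 2 days, and untreated THP-1. DAC is a deoxycytidine analogue that blocks DNA methyltransferases, and the question in the labels is what it changes in cells with this mutant. Dose and time differ between the lines, so line, dose and time cannot be told apart. No library without the mutant is analysed here, and the labels do not say which vector carried it or whether the cells were 1 clone.

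Each group has 1 library, so replicate error cannot be measured. Within a line, values are therefore described with no p-value, and a 95% interval beside a fold reflects the number of reads alone. Levels are in FPKM (fragments scaled to gene length and library size), and the steps between low values give a depth of 18.71 to 19.65 M reads per library. Genes reaching 1 FPKM in either library of a line were kept. A kept gene was called where log2(FPKM + 1) differed by 2-fold or more, a scale that understates the change of low genes. By that rule 10.3% of the 14058 genes kept in HCC1937 were higher with DAC and 1.44% lower, against 1.14% and 0.364% of 12075 in THP-1. Over all kept genes the log2 differences had a median of 0.19 in HCC1937 and 0.07 in THP-1, a shift to hold beside each member's own difference. THP-1 values were given for 23440 of the 59533 genes, and whether both lines were processed alike is not given in the sources used here, so levels are compared between the lines only roughly. All 10 breast epithelial markers checked reached 1 FPKM in both HCC1937 libraries, and all 10 monocytic leukaemia markers did in both THP-1 libraries. In HCC1937, 2 of the monocytic markers reached 1 FPKM with DAC (CSF1R and ITGAM) and 0 untreated, with list sums of 5.10 FPKM and 1.14 FPKM. In THP-1, 2 epithelial markers reached it with DAC (KRT8 and KRT17) and 1 untreated (KRT8), with sums of 6.87 FPKM and 2.89 FPKM. Of 6 fibroblast markers, 1 (COL1A1) reached 1 FPKM in each HCC1937 library, and in THP-1 2 reached it with DAC (COL1A1 and PDGFRB) and 0 untreated. The fibroblast markers summed to 9.28 FPKM with DAC and 3.28 FPKM untreated in HCC1937 and to 4.49 and 1.16 FPKM in THP-1. The part of such low off-type RNA in the members' values was not tested.

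The sequence before the transcription start is shown for 2 BH3-only members, the family's pair of classical p53 targets of that class. They were also chosen because 1 of them (BBC3) was the only member called in either line, and because CpG density differs between the stretches shown. CpG is the dinucleotide that DNA methyltransferases modify. Capitals mark each CpG, and each stretch runs 5′ to 3′ on the gene's strand up to its first annotated exon base (RefSeq, GRCh38.p14, trimmed at GENCODE 29 exons). BBC3 is shown at chr19:47232767-47232917, minus strand, with 1 CpG in 151 bases, and PMAIP1 at chr18:59899746-59899947, plus strand, with 33 CpG in 202 bases. Only 1 RefSeq start was at hand for each of these 2 genes, so CpG density at other starts or within the gene is not covered.
BBC3: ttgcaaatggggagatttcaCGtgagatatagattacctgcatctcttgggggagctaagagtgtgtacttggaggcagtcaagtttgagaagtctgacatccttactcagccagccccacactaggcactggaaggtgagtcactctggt
PMAIP1: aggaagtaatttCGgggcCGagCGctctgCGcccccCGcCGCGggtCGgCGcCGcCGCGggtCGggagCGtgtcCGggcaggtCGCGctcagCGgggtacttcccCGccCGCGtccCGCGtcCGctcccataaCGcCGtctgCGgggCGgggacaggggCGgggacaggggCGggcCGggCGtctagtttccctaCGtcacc

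RefSeq start windows of 300 bases (250 before to 50 after a start) were at hand for 9 of the 10 members, 14 windows in all. BCL2A1 held 2 CpG, BBC3 5 and BAK1 7, all below the median of 14 over 35116 windows. PMAIP1 held 42, BCL2L11 39, BAX 38 and BCL2 31, all above the upper quartile of 28. BCL2L1 held 16 and 20 in its 2 windows, and BID between 6 and 37 in its 5. A p53 half-site by its 10-base consensus was found in the window of BAK1 alone, and 6.63% of all windows held one; the consensus is its own reverse complement, so both strands were read at once. Only exact matches inside these windows were sought, so half-sites elsewhere in a gene or with a mismatch are not covered. Methylation was not measured, and a motif match describes letters only.

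In HCC1937, 1 of the 8 members kept was called, BBC3, which was lower with DAC, and 0 were higher. Across all kept genes the shares were 1.44% lower and 10.3% higher. In THP-1, 0 of the 10 members kept were called in either direction, where 0.364% of all kept genes were lower and 1.14% higher. The median log2 difference of the kept members was 0.02 in HCC1937 and 0.02 in THP-1, beside 0.19 and 0.07 over all kept genes. At a looser size of 1.5-fold, 0 members were higher and 1 (BBC3) lower in HCC1937, where 21.9% and 5.91% of kept genes were, and 1 (BCL2A1) was higher and 0 lower in THP-1, where 3.3% and 1% were. These are values of whole cultures, in which fewer cells expressing a gene and less RNA per cell cannot be told apart.

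**Figure D1:**
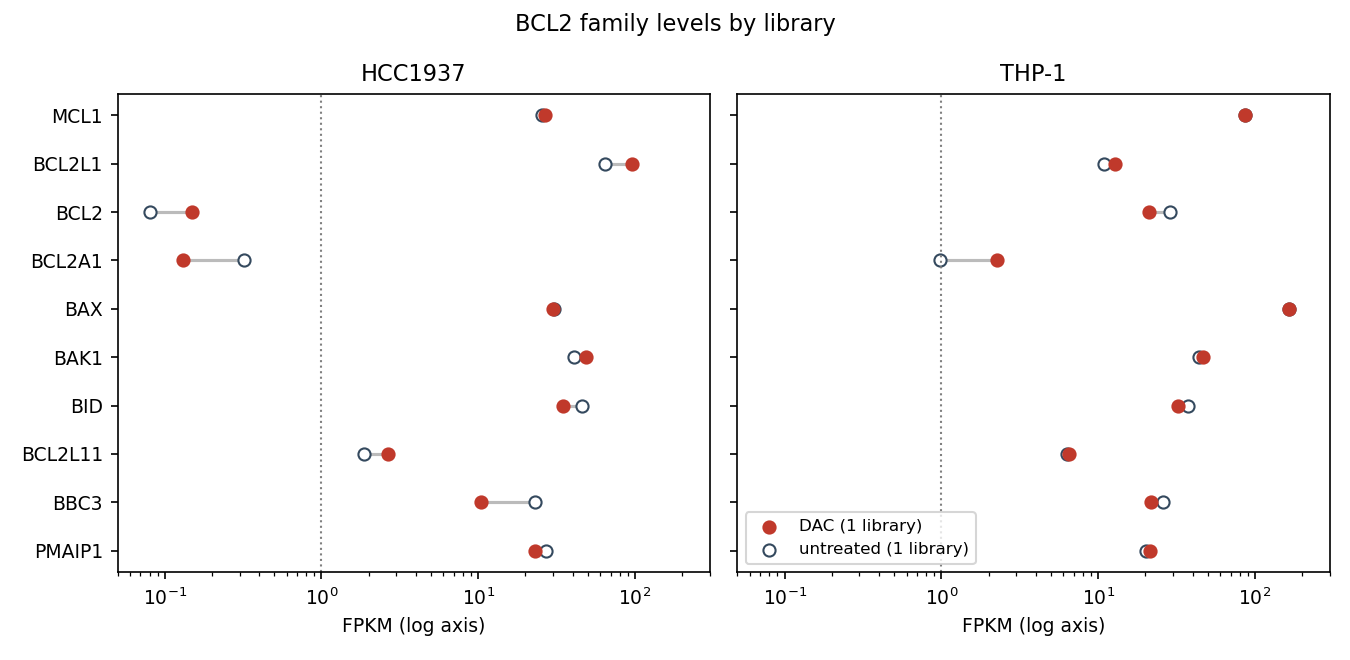
Level of each of the 10 members in FPKM (log axis) in HCC1937 (left) and THP-1 (right); filled points are the DAC library, open points the untreated library, and the dotted line is 1 FPKM. Among the members above 1 FPKM in HCC1937, BBC3 has the widest gap, at 10.3 FPKM with DAC and 22.9 FPKM untreated, and BCL2 lies below 1 FPKM in HCC1937 and above 20 FPKM in THP-1.

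Among the anti-apoptotic members, HCC1937 carried mainly BCL2L1 and THP-1 mainly MCL1. BCL2L1 (ENSG00000171552.12, chromosome 20, 31664452 to 31723989 on hg38), which encodes BCL-XL, a guard of the outer mitochondrial membrane, stood at 96.1 FPKM with DAC and 64.4 FPKM untreated in HCC1937. That is 1.49-fold (95% counting interval 1.43 to 1.55), a log2 difference of 0.57 that did not reach the size rule. It was the highest of the 10 members in both HCC1937 libraries, above 96.8% of kept genes with DAC and 94.6% untreated. In THP-1 it stood at 12.75 FPKM with DAC and 10.85 FPKM untreated, 1.18-fold (1.06 to 1.30). BCL2L1 was thus the higher value in the DAC library of both lines, also under both other scalings, and by less than 2-fold in each. Scaled by median of ratios and by upper quartile, its log2 difference in HCC1937 shrank to 0.29 and 0.26. In THP-1 it was 0.13 and 0.16. Gene-level values do not separate its long, anti-apoptotic transcript from its short, pro-apoptotic one. The antisense gene ABALON overlaps its exons and stood at 2.69 FPKM with DAC and 2.19 FPKM untreated in HCC1937, and at 3.53 FPKM and 2.81 FPKM in THP-1. Whether strand was used in counting is not given in the sources used here, so reads of such overlaps cannot be told apart.

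MCL1 (ENSG00000143384.12, chromosome 1, 150574551 to 150579738) encodes a short-lived guard on which many myeloid cells depend. It stood at 86.5 FPKM with DAC and 86.4 FPKM untreated in THP-1, 1.00-fold (0.969 to 1.03). In HCC1937 it stood at 26.8 FPKM with DAC and 25.65 FPKM untreated, 1.04-fold (0.984 to 1.11). Both intervals include a ratio of 1, and MCL1 turned to the lower side in both lines under either other scaling.

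BCL2 (ENSG00000171791.12, chromosome 18, 63123346 to 63320128), the founding member, first found at a lymphoma translocation, was close to silent in HCC1937, at 0.15 FPKM with DAC and 0.08 FPKM untreated. Those levels rest on about 33 and 18 reads, neither reached 1 FPKM, and their ratio of 1.88 had an interval of 1.00 to 3.45. In THP-1, BCL2 stood at 21.0 FPKM with DAC and 28.7 FPKM untreated, 0.731-fold (0.704 to 0.759). The THP-1 level was roughly 139.9 times that of HCC1937 with DAC and 359 times untreated. This was the widest gap between the lines of any member, and the DAC library of HCC1937 stayed far below both THP-1 libraries.

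BCL2A1 (ENSG00000140379.7, chromosome 15, 79960889 to 79971446) encodes A1, a guard that NF-kB induces in blood cells. It stood at 2.27 FPKM with DAC and 0.98 FPKM untreated in THP-1, 2.32-fold (1.36 to 4.05) on about 49 and 21 reads. Its log2 difference of 0.72 on log2(FPKM + 1) missed the size rule, although the plain ratio is over 2. Only its DAC value reached 1 FPKM, so its direction follows in part from the filter. In HCC1937 it stood at 0.13 FPKM with DAC and 0.32 FPKM untreated, about 3 and 7 reads, which gives 0.406-fold with an interval of 0.0714 to 1.88.

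The 4 anti-apoptotic members summed to 123 FPKM with DAC and 90.5 FPKM untreated in HCC1937, a ratio of 1.36. Sums of members were compared between libraries on values as deposited only, not under the other scalings. BCL2L1 made up 78.0% of that sum with DAC and 71.2% untreated, and MCL1 21.8% and 28.4%. In THP-1 the sum was 122 FPKM with DAC and 127 FPKM untreated, a ratio of 0.965. MCL1 made up 70.6% with DAC and 68.1% untreated, BCL2 17.1% and 22.6%, BCL2L1 10.4% and 8.55%, and BCL2A1 1.85% and 0.772%. The order of the members was the same with DAC and untreated in THP-1, while in HCC1937 BCL2 and BCL2A1, at or below 0.32 FPKM each, changed places.

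**Figure D2:**
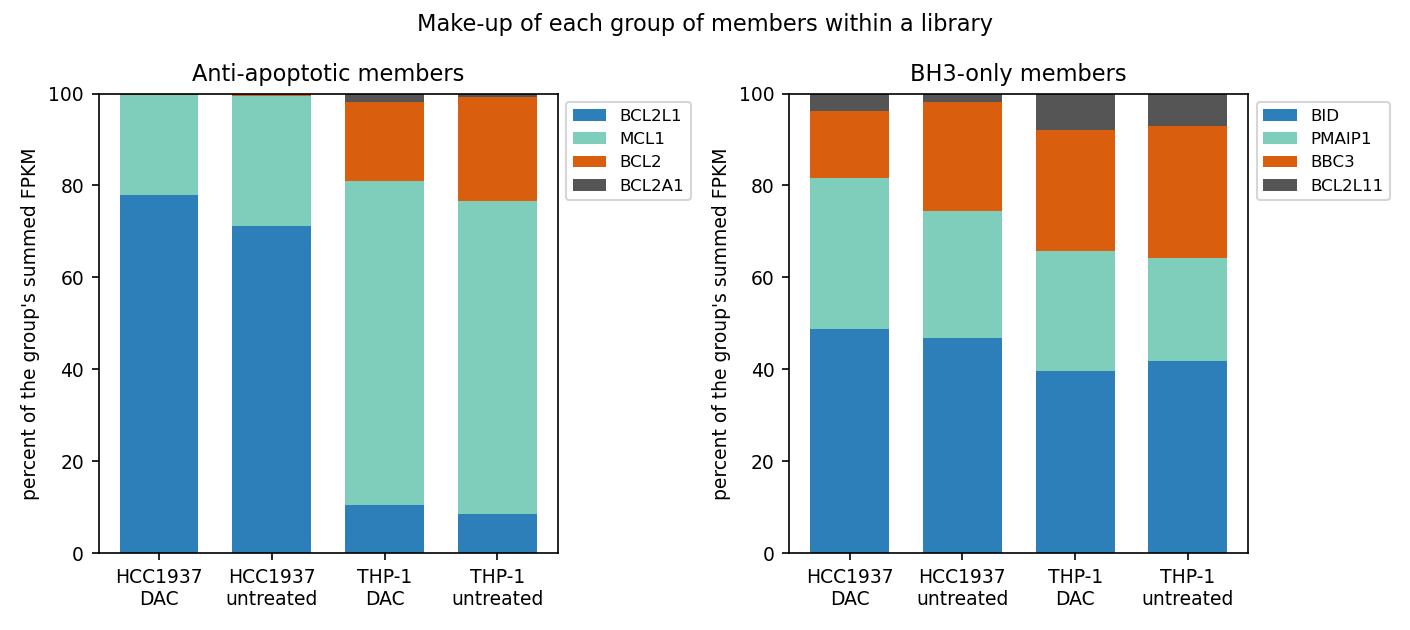
Share (percent) that each member takes of the summed FPKM of the anti-apoptotic group (left) and of the BH3-only group (right) in each of the 4 libraries, 1 bar per library. BCL2L1 takes 78.0% (DAC) and 71.2% (untreated) of the anti-apoptotic sum in HCC1937, where MCL1 takes 70.6% and 68.1% in THP-1; the BBC3 share of the BH3-only sum is 14.6% with DAC and 23.5% untreated in HCC1937.

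The effectors BAX and BAK1, which open the outer mitochondrial membrane, differed little in the values as deposited. BAX (ENSG00000087088.19, chromosome 19, 48954815 to 48961798) stood at 30.1 FPKM with DAC and 30.6 FPKM untreated in HCC1937, 0.985-fold (0.915 to 1.06). In THP-1 it stood at 165.88 FPKM with DAC and 165.89 FPKM untreated, 1.00-fold (0.970 to 1.03), the highest of the 10 members in both libraries. Both intervals include a ratio of 1, and they cover neither differences between cultures nor the choice of scaling. The BAX log2 difference in HCC1937 was -0.02 as deposited, and -0.30 and -0.32 when scaled by median of ratios and by upper quartile. In THP-1 those scalings gave -0.09 and -0.05. BAK1 (ENSG00000030110.12, chromosome 6, 33572547 to 33580293) stood at 48.7 FPKM with DAC and 41.0 FPKM untreated in HCC1937, 1.19-fold (1.11 to 1.27). In THP-1 it stood at 46.6 FPKM with DAC and 44.05 FPKM untreated, 1.06-fold (0.993 to 1.13). The BAK1 difference of 0.24 in HCC1937 is close to the median of all genes, 0.19, and turned to -0.04 and -0.06 when scaled by median of ratios and by upper quartile. BAK1 has processed pseudogenes, of which BAK1P1 stood at 1.51 FPKM in both HCC1937 libraries, so its share of reads is slightly uncertain.

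Summed anti-apoptotic RNA over summed BAX and BAK1 RNA was 1.56 with DAC and 1.26 untreated in HCC1937, and 0.577 with DAC and 0.605 untreated in THP-1. The ratio was above 1 in both HCC1937 libraries and below 1 in both THP-1 libraries. In HCC1937 the gap between the libraries came with BCL2L1, and in THP-1 the lower BCL2 value came with nearly equal effector sums of 212 FPKM with DAC and 209.9 FPKM untreated. These are RNA levels per length, and protein was not measured.

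Of the members kept in HCC1937, the BH3-only member BBC3 held the largest difference. BBC3 (ENSG00000105327.17, chromosome 19, 47220822 to 47232766) encodes PUMA, which binds every anti-apoptotic member and is induced by p53 and by endoplasmic reticulum stress. It stood at 10.3 FPKM with DAC and 22.9 FPKM untreated in HCC1937, on about 616 and 1360 reads. That is 0.452-fold (0.411 to 0.498), a log2 difference of -1.07, lower by the size rule. The value lies only just past the rule. With a pseudocount of 10 it was -0.69 and no longer called, and it was -1.34 and -1.36 when scaled by median of ratios and by upper quartile. BBC3 stood above 66.0% of kept genes with DAC and above 84.1% untreated. In THP-1 it was also lower, at 21.6 FPKM with DAC and 25.9 FPKM untreated, 0.833-fold (0.774 to 0.896), and was not called. The microRNA genes MIR3190 and MIR3191 overlap BBC3 exons and were at 0 in both HCC1937 libraries. In THP-1 MIR3190 stood at 1.27 FPKM with DAC and 2.57 FPKM untreated, and MIR3191 at 1.34 and 2.71 FPKM. At the short length of microRNA genes such values rest on few reads, and no interval was made for them.

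BID (ENSG00000015475.18, chromosome 22, 17734138 to 17774770), which caspase-8 cleaves to carry a death receptor signal to mitochondria, was the second BH3-only member with a lower value in both DAC libraries. It stood at 34.5 FPKM with DAC and 45.5 FPKM untreated in HCC1937, 0.758-fold (0.722 to 0.796). In THP-1 it stood at 32.5 FPKM with DAC and 37.5 FPKM untreated, 0.867-fold (0.824 to 0.912). Neither reached the size rule, and the lower side held under both other scalings in both lines.

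PMAIP1 (ENSG00000141682.11, chromosome 18, 59899948 to 59904306) encodes NOXA, which binds mainly MCL1 and A1. It stood at 23.1 FPKM with DAC and 26.9 FPKM untreated in HCC1937, 0.860-fold (0.788 to 0.937). In THP-1 it stood at 21.45 FPKM with DAC and 20.1 FPKM untreated, 1.07-fold (0.971 to 1.17). The THP-1 interval includes a ratio of 1, and the sign there turned under median-of-ratios scaling. PMAIP1 was within 2-fold in both lines, and a link between CpG count and DAC difference was not tested.

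BCL2L11 (ENSG00000153094.22, chromosome 2, 111119378 to 111168447) encodes BIM, which binds every anti-apoptotic member and is controlled by FOXO factors and kinases. It stood at 2.67 FPKM with DAC and 1.87 FPKM untreated in HCC1937, 1.43-fold (1.20 to 1.70). In THP-1 it stood at 6.50 FPKM with DAC and 6.30 FPKM untreated, 1.03-fold (0.936 to 1.14), and turned to the lower side under both other scalings. It was the lowest BH3-only member in all 4 libraries. The noncoding gene MIR4435-2HG overlaps BCL2L11 exons on the other strand and stood at 21.8 FPKM with DAC and 17.2 FPKM untreated in THP-1. In HCC1937 it stood at 1.53 FPKM with DAC and 1.5 FPKM untreated, so the overlap bears on both lines.

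The 4 BH3-only members summed to 70.65 FPKM with DAC and 97.15 FPKM untreated in HCC1937, a ratio of 0.727, and to 82.0 FPKM with DAC and 89.8 FPKM untreated in THP-1, a ratio of 0.913. BBC3 made up 14.6% of that sum with DAC and 23.5% untreated in HCC1937, and 26.3% and 28.8% in THP-1. Set against the anti-apoptotic sum, BH3-only RNA was 0.574 with DAC and 1.07 untreated in HCC1937, against 0.670 and 0.708 in THP-1. These sums describe 1 library each, and no error between cultures can be given.

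**Figure D3:**
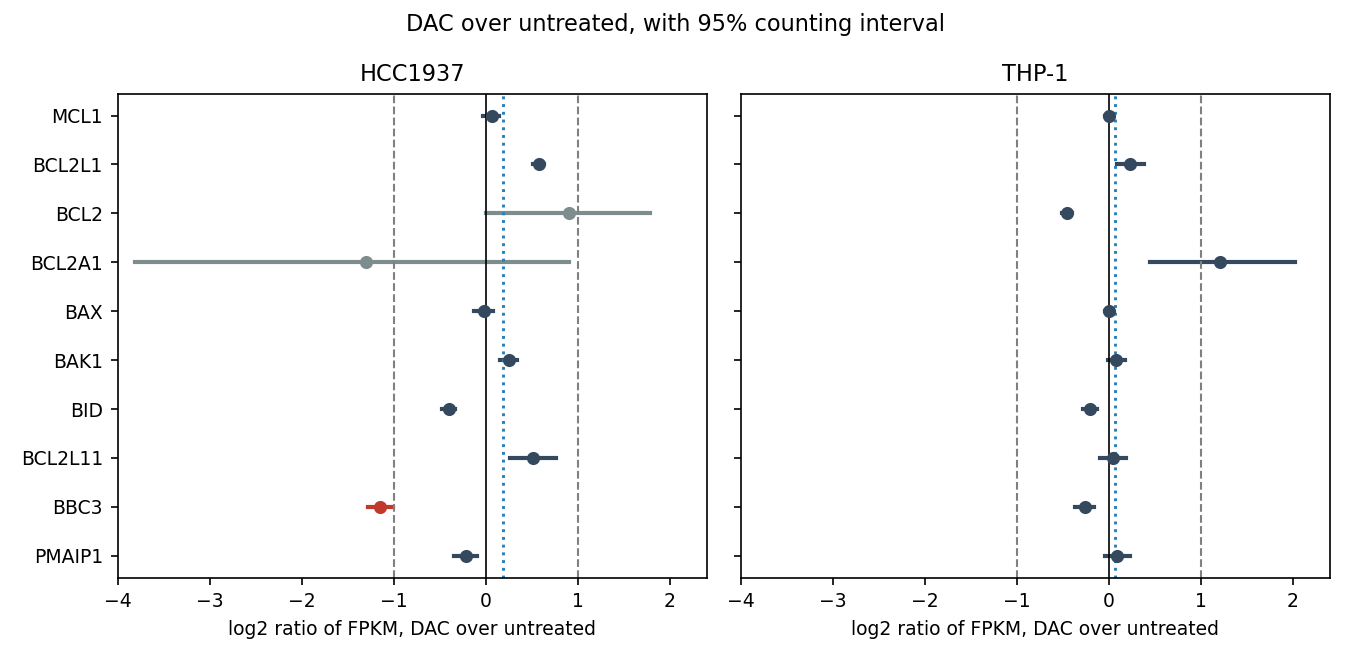
Log2 ratio of FPKM, DAC over untreated, for each member in HCC1937 (left) and THP-1 (right); bars are exact 95% counting intervals, dashed lines mark 2-fold, the blue dotted line is the median log2(FPKM + 1) difference of all kept genes, grey marks members below 1 FPKM in both libraries, and red marks the called member. BBC3 in HCC1937 is the only member called; BCL2A1 in THP-1 passes 2-fold as a plain ratio (2.32) but not on log2(FPKM + 1), and the wide bars of BCL2 and BCL2A1 in HCC1937 rest on 33 reads or fewer per library.

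By counting error alone, 3 of the 8 members kept in HCC1937 had an interval wholly above 1 (BCL2L1, BAK1 and BCL2L11) and 3 wholly below (BBC3, BID and PMAIP1). Over 13289 kept genes with an interval, 50.3% lay above 1 and 22.2% below, so such an interval is common at this depth. In THP-1, 2 of 10 members lay above 1 (BCL2L1 and BCL2A1) and 3 below (BCL2, BID and BBC3), where 38% and 16.3% of 11988 genes did. The sign of the log2 difference was the same in both lines for 7 of the 10 members and opposite for 3 (BCL2, BCL2A1 and PMAIP1), with no test of either.

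Taking both lines together, a limma model of log2(FPKM + 1) took treatment and line as terms. A gene's own error is how far the DAC differences of HCC1937 and THP-1 lie apart. Limma drew that error towards a trend over all genes, with a median of 4.28 total degrees of freedom. Each SE and p therefore rests in large part on the spread of other genes. Of 13984 genes tested, 0% were called at a Benjamini-Hochberg adjusted p under 0.05 and 0 of the 10 members were. At an unadjusted p under 0.05, 0 of 10 members and 4.04% of all genes passed. BBC3 had the lowest p of the family, with a log2 difference of -0.66 (SE 0.25), an unadjusted p of 0.0511 and a limma adjusted p of 0.695, and it was lower in 2 of 2 lines. BCL2L1, at 0.39 (SE 0.17), had an unadjusted p of 0.0796 and the same limma adjusted p of 0.695, and it was higher in 2 of 2 lines. BID, at -0.29 (SE 0.16), had an unadjusted p of 0.126 in limma and an adjusted p of 0.695. No member's difference over both lines was therefore shown, and with 1 library per group and line this does not show that the members stayed the same.

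Beyond the members, 57 further genes of the mitochondrial pathway were read in 6 lists, and of these 1 was called in HCC1937 and 0 in THP-1. Across all kept genes, 10.3% were higher and 1.44% lower in HCC1937, and 1.14% and 0.364% in THP-1. These shares also stand beside the counts of each list below. The median log2 difference of the further genes was 0.20 over the 54 kept in HCC1937 and 0.09 over the 49 kept in THP-1, beside 0.19 and 0.07 for all kept genes. Other BCL2 homologues and BH3 proteins included 1 higher and 0 lower among 12 kept in HCC1937 (median 0.25), and 0 called among 9 kept in THP-1 (median -0.11). The higher one was BCL2L10, an anti-apoptotic homologue best known from oocytes, at 1.5 FPKM with DAC and 0.04 FPKM untreated, a log2 difference of 1.27. Only its DAC value reached 1 FPKM, and its untreated level rests on about 1 read. The highest of that list in HCC1937 were BAD, a BH3-only partner of BCL2 and BCL-XL (42.4 FPKM with DAC and 36.6 FPKM untreated), and BCL2L12 (29.1 and 19.7 FPKM). In THP-1 they were BCL2L12 (51.2 FPKM with DAC and 56.7 FPKM untreated) and BNIP3, a mitophagy receptor (28.8 and 50.2 FPKM), whose log2 difference of -0.78 missed the size rule. HRK, a BH3-only protein of neurons known for promoter methylation in tumours, stood at 1.91 FPKM with DAC and 0.64 FPKM untreated in HCC1937. In both THP-1 libraries it was at 0. Its HCC1937 log2 difference of 0.83 was not called, and only its DAC value there reached 1 FPKM. HRK falls outside the naming rule and was picked after its values were seen.

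Downstream of the pore, 0 of 9 apoptosome and caspase genes were called in either line, with medians of 0.26 in HCC1937 and 0.22 in THP-1. Their highest members were CYCS, cytochrome c itself (31.1 FPKM with DAC and 24.2 FPKM untreated in HCC1937, 55.85 and 47.2 FPKM in THP-1), and PARP1, a caspase substrate (42.3 and 39.7 FPKM in HCC1937, 173 and 161 FPKM in THP-1). CYCS has many processed pseudogenes, so its values are uncertain. Caspase inhibitors and their antagonists had 0 of 7 called in HCC1937 (median 0.27) and 0 of 6 in THP-1 (median 0.13). BIRC5, or survivin, led that list at 38.7 FPKM with DAC and 35.1 FPKM untreated in HCC1937, followed by BIRC3 at 12.5 and 10.9 FPKM. In THP-1, BIRC5 stood at 54.0 and 56.3 FPKM and HTRA2, a mitochondrial protease, at 36.1 and 37.0 FPKM.

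Partners at the mitochondria had 0 of 7 called in both lines (medians 0.24 and 0.07). VDAC1, a channel of the outer membrane, stood at 96.1 FPKM with DAC and 86.5 FPKM untreated in HCC1937 and at 120.7 and 132 FPKM in THP-1. MTCH2, a docking site for truncated BID, stood at 34.3 and 25.2 FPKM in HCC1937, and VDAC3 at 137.8 and 131 FPKM in THP-1. Genes linking death receptors to BID had 0 of 7 called in HCC1937 (median 0.05) and 0 of 6 in THP-1 (median 0.22). Their highest members were TNFRSF10B, a TRAIL receptor (24.6 FPKM with DAC and 24.3 FPKM untreated in HCC1937, 15.4 and 11.6 FPKM in THP-1), and the adaptor FADD (23.8 and 22.7 FPKM in HCC1937, 24.8 and 26.5 FPKM in THP-1).

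Regulators of the family had 0 of 12 called in both lines (medians 0.22 and 0.07). ATF4, the transcription factor of the integrated stress response, stood at 121 FPKM with DAC and 219 FPKM untreated in HCC1937, a log2 difference of -0.85, which passed 2-fold when scaled by median of ratios and by upper quartile at -1.14 and -1.16. E2F1, a cell cycle transcription factor, stood at 82.9 FPKM with DAC and 50.1 FPKM untreated there. In THP-1, ATF4 stood at 262 FPKM with DAC and 305 FPKM untreated. Of this list, FOXO3, DDIT3, TP73 and MYC fall outside the naming rule and were picked after their values were seen. FOXO3 stood at 15.9 FPKM with DAC and 23.25 FPKM untreated in HCC1937, and DDIT3, or CHOP, at 26.6 and 40.2 FPKM. TP73 stood at 2.19 and 2.20 FPKM there, and MYC at 37.15 and 26.3 FPKM. Of the 12 regulators in HCC1937, 8 had a log2 difference above 0 and 4 below. In THP-1 FOXO3 stood at 8.22 FPKM with DAC and 8.42 FPKM untreated, and DDIT3 at 25.8 and 23.3 FPKM. TP73 stood at 11.62 and 10.92 FPKM there, and MYC at 80.05 and 128.54 FPKM. Their part in the BBC3 difference was not tested.

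**Figure D4:**
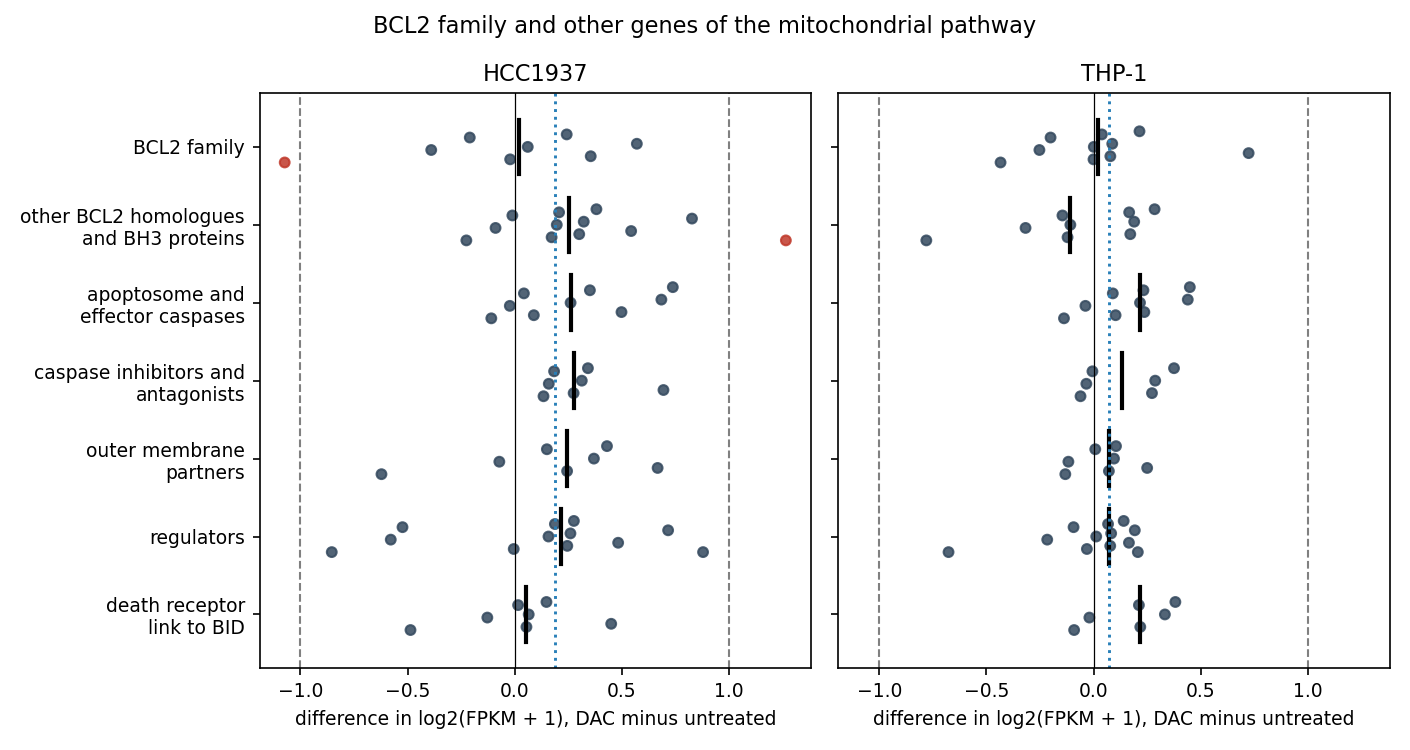
Difference in log2(FPKM + 1), DAC minus untreated, for each kept gene of the BCL2 family and of 6 further lists in HCC1937 (left) and THP-1 (right); points are genes, spread vertically for visibility, black bars are list medians, dashed lines mark 2-fold, the blue dotted line is the median of all kept genes, and red marks called genes. In HCC1937, BBC3 lies past the lower line and BCL2L10 past the upper line, and in THP-1 all points lie between the lines.

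The protein-coding genes whose 4 values lay nearest to those of BBC3, by Euclidean distance on log2(FPKM + 1) among 18211 candidates, were SIL1 (distance 0.32), SMCO4 (0.40) and ENTPD6 (0.41). SIL1 stood at 12.3 and 21.25 FPKM in the DAC and untreated libraries of HCC1937 and at 22.2 and 22.6 FPKM in those of THP-1. Those nearest to BCL2A1, the member with the largest difference in THP-1, were BGLAP (0.20), FKBP7 (0.27) and CXCL10 (0.28). Likeness over 4 libraries that hold 2 lines mostly reflects level and line.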

How the data were processed

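The submitters deposited 1 table of values per gene symbol for the 4 libraries. The deposited table states no unit. FPKM made by the authors was inferred, because values have 2 decimals and value times exon length (GENCODE 29) falls on whole multiples of 1 step, within 0.1, in 92.3% to 94.8% of genes of 50 to 250 bp. Tools named in the submitters' processing notes are STAR, HTSeq, cutadapt and FastQC, with hg38 as the build; versions, annotation and strand use are not given in the sources used here. Of 60612 lines, 37039 lack a THP-1 value. The lines of 76 repeated symbols (1079 lines) were left out.

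Reads per gene were estimated from FPKM, that step and GENCODE 29 exon lengths, which may differ from the lengths the authors used, and gave exact (Clopper-Pearson) 95% intervals. The members and lists were chosen with earlier results of these data known. Named genes were all members and, of each further list, those called and the 2 highest in a line. Called values within a line carry no test. The fit over both lines used limma 3.58.1 in R 4.3.3, with line as a block, an intensity trend and Benjamini-Hochberg adjustment over all genes; it replaced a count test, as the values are no counts. The size rule and the limma fit were run on simulated data in which each changed gene changed alike in both lines. The real lines differ in dose and time, so these runs do not show how limma performs here. Intervals came from scipy 1.17.1 and figures from matplotlib 3.10.9, under Python 3.11.15 with numpy 2.4.6 and pandas 2.3.3. Alternatives were 2 scalings, other pseudocounts, filters and sizes of change, and limma without block, trend or filter. Values of 1 gene of the regulator list that the naming rule picked, and of 1 marker list, are not reported here.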

Additional observations from a re-analysis of the deposited data

Results flagged for a closer look

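For 3 members the DAC library lay on opposite sides of the untreated library in the 2 lines. With 1 library per group the difference between the lines was not tested. BCL2 had a log2 difference of 0.09 in HCC1937 and -0.43 in THP-1, a gap of 0.52, with both HCC1937 values below 1 FPKM. BCL2A1 had -0.22 in HCC1937 and 0.72 in THP-1, a gap of -0.95, on at most 49 reads per library. PMAIP1 had -0.21 in HCC1937 and 0.09 in THP-1, a gap of -0.30, and its THP-1 sign turned under median-of-ratios scaling.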

How the results depend on the processing

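In HCC1937 the count of 1 lower and 0 higher members was the same under both scalings and a pseudocount of 0.1. It was also the same with filters at 5 FPKM or none, and at a size of 1.5-fold. With a pseudocount of 10 it was 0 lower (BBC3 at -0.69), since that offset shrinks differences. With the counting interval as the rule it was 3 lower and 3 higher in HCC1937, and 3 lower and 2 higher in THP-1. Over all kept HCC1937 genes, 3.30% were lower and 7.87% higher by median of ratios, and 3.52% and 7.68% by upper quartile. As deposited, 1.44% were lower and 10.3% higher. By counting interval, 22.2% of genes lay below 1 and 50.3% above in HCC1937, and 16.3% and 38% in THP-1. Shares over all genes at the other pseudocounts and filters are not given here. In THP-1, BCL2A1 made 1 member higher with a pseudocount of 0.1 or at 1.5-fold, and 0 were called under the other settings run. Of the other pathway genes, 1 (ATF4) was lower in HCC1937 under median-of-ratios scaling and 1 under upper-quartile scaling, against 0 as deposited. These scalings lowered the median of all genes by 0.25 and 0.27 in HCC1937, and higher genes made up 70.5% and 68.6% of all called genes there, against 87.8% as deposited. Member signs turned under at least 1 scaling for 2 of 10 in HCC1937 and 4 of 10 in THP-1. The limma fit called 0 of 10 members under each setting run. With upper-quartile scaling 1 (BBC3) had an unadjusted limma p under 0.05, at 0.0329 with a limma adjusted p of 0.812. Under that setting 3.12% of all genes had an unadjusted limma p under 0.05. Pairing by replicate number could not be tried, since each group has 1 library and the labels carry no such numbers; the limma fit pairs DAC with untreated within each line, and without the line term it called 0 of 10 members, with a lowest limma adjusted p of 1. Without replicates, differences between cultures remain unmeasured, and members below 1 FPKM rest on 33 reads or fewer.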
